A study of Mus musculus with 15 samples.

Results

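Mouse neural progenitors that were made to express Olig2 were compared with control progenitors that carried Cre in place of the factor, across genes outside chromosomes 18 and Y. These 2 chromosomes were set aside because whole stretches of them shifted in the Olig2 line. Genes with at least 1 CPM (counts scaled to library size) in at least 2 libraries were tested, and 13511 of the 13982 such genes had a single position outside chromosomes 18 and Y. The remaining genes were 370 on chromosome 18, 5 on chromosome Y and 96 with no single position.

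The Olig2 line (transgene TRE_Olig2, 2 libraries) and the control line mA2.lox.Cre (TRE_Cre, 5 libraries) are embryonic stem cell lines of the 129/Ola strain. Both were depleted of feeder cells, grown for 2 days in suspension, treated with 500 nM all-trans retinoic acid and then given 1 ug/ml doxycycline for 12 hours, so the controls saw the same drugs as the Olig2 line. Lines made in the same way for Nkx6.1, Nkx2.2, Nkx6.1-P2A-Olig2 and Nkx6.1-P2A-Nkx2.2, with 2 libraries each, served for comparison. The series of 15 libraries set out to find genes that these factors repress. The sources used here do not say whether libraries of a line were separate cultures or whether a line is 1 clone, so p-values measure the spread between libraries, which may be technical, and the factor and the line cannot be told apart. Library totals were 14440309 and 17002741 counts in the Olig2 line and 18015449 to 19426544 in the controls.

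Olig2 is a basic helix-loop-helix (bHLH) factor of the ventral neural tube. It marks the progenitors of motor neurons and later of oligodendrocytes, and it acts largely as a repressor of genes of neighbouring progenitor domains. Motor neuron progenitors leave the cycle as proneural bHLH factors such as Neurog2 rise, and cells with high proneural activity display Notch ligands that hold their neighbours in the progenitor state. The bHLH factors bind short E-box sequences in DNA.

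The transgene was high in its line. Olig2 (chromosome 16, 91225457 to 91228677, mm10) was at 422 and 522 CPM in the Olig2 libraries, and at 5.58, 17.3, 12.7, 17.3 and 45.1 CPM in control replicates 1 to 5. The groups did not overlap, and control replicate 5 was the highest control. Its log2 fold change of 4.59 ± 0.46 passed (SE; edgeR quasi-likelihood adjusted p = 0.000144). Reads of the transgene and of the endogenous gene are counted together.

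Summed CPM of the 15 neural progenitor markers outside chromosomes 18 and Y was 1016 to 1540 in the Olig2 line and 1063 to 1489 in the controls. Sums of the other marker lists, also without those chromosomes, overlapped between the groups for neurons (48.3 to 99.5 against 39.6 to 70.5 CPM) and motor neurons (15.2 to 28.1 against 8.87 to 17.3). For the oligodendrocyte lineage they overlapped narrowly (352 to 376 against 237 to 353). In the last sum Pdgfra alone was at 243 and 230 CPM against 115 to 247 CPM. Overlap was also narrow for mesoderm (42.7 to 59.7 against 58.6 to 78.9) and neural crest (68.1 to 79.2 against 75.5 to 91.9). Sums also overlapped for pluripotent cells (138 to 269 against 156 to 282), endoderm (373 to 378 against 235 to 502) and floor plate (195 to 357 against 173 to 298). The sum of 11 feeder fibroblast markers was 678 to 730 against 516 to 661 CPM, and without Fn1, a fibronectin that many cell types make, it overlapped (106 to 125 against 80.8 to 149). The defining markers Zfp488, Gpr17, Msgn1, Mesp1 and Ferd3l had at most 3 counts in each library. In bulk RNA, fewer cells of a type and less RNA per cell cannot be told apart.

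Outside chromosomes 18 and Y, 95 genes passed the threshold of 0.05 on the adjusted p (0.703% of 13511), 55 lower (0.407%) and 40 higher (0.296%) in the Olig2 line. Of these, 42 changed by 2-fold or more (0.311%), 20 lower (0.148%) and 22 higher (0.163%). In each of the 95 genes both Olig2 libraries lay on one side of all 5 controls, whereas 6.46% of all genes described had both above and 7.96% had both below. The calls were of unequal strength. In a fit that leaves out chromosomes 18 and Y 20 genes passed (0.147% of 13574), 11 lower (0.0810%) and 9 higher (0.0663%), all of them among the 95. With the fit kept and p-values adjusted only over genes outside these chromosomes 22 passed, so the count of 95 rests largely on the many genes of chromosome 18 in the adjustment. The text below names which genes passed in both fits. At an unadjusted p under 0.05 there were 1524 genes.

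**Figure D1:**
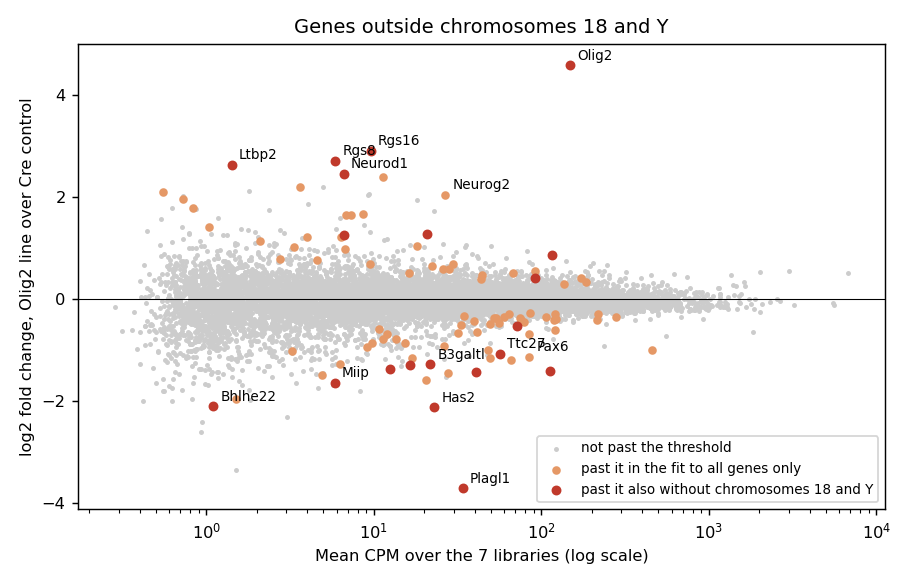
Each point is 1 gene outside chromosomes 18 and Y, with its mean CPM over the 7 libraries on a log axis and its log2 fold change in the Olig2 line over the Cre control. The 95 genes past the threshold are coloured, and the 20 that passed also without chromosomes 18 and Y are red.

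A pair of neighbouring genes for regulators of G-protein signalling had the highest log2 fold changes among called genes other than Olig2. Rgs16 and Rgs8 are GTPase-activating proteins that shorten signalling by heterotrimeric G proteins. Rgs16 was at 15.4 and 34.8 CPM in the Olig2 libraries and at 2.87, 3.19, 2.81, 3.32 and 4.56 CPM in the controls. Rgs8 was at 6.83 and 23.1 CPM against 1.56, 2.14, 2.13, 2.08 and 3.45 CPM. In both genes the Olig2 libraries lay above every control, with replicate 2 well above replicate 1. The log2 fold changes were 2.91 ± 0.25 for Rgs16 (SE; edgeR quasi-likelihood adjusted p = 6.00e-05, and 0.000148 without chromosomes 18 and Y) and 2.72 ± 0.37 for Rgs8 (adjusted p = 9.14e-04 and 0.00803).

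Both genes lie on the plus strand of chromosome 1 (Rgs8 at 153653025 to 153700323, Rgs16 at 153740349 to 153745468), with starts 87.3 kb apart. The other tested genes within 500 kb did not pass. Among them Npl had a log2 fold change of 0.36 ± 0.44, Glul -0.02 ± 0.23 and Dhx9 -0.08 ± 0.07 (SE; edgeR quasi-likelihood adjusted p = 0.788, 0.982 and 0.715). Among 13 members of the Rgs family 2 rose and 11 did not pass, and the family median was 0.01 beside -0.01 over all genes described. Of all genes described, 0.296% rose. Rgs2, for example, was at 5.16 and 4.93 CPM against 4.89 to 11.9 CPM, overlapping the controls.

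The promoters of Rgs8 and Rgs16 are shown because the genes lie side by side and rose together, and those of Neurod1 and Plagl1 because they were the proneural gene past both fits and the lowest called gene. Each run is the 300 bases from 250 before to 50 after a RefSeq start (GRCm38.p6), read 5′ to 3′ on the gene's strand, and capitals mark the E-boxes: CAGCTG or CATATG, which read the same on both strands, or CAGATG, which reads CATCTG on the other.
Rgs8 (chr1:153652787-153653086, plus strand): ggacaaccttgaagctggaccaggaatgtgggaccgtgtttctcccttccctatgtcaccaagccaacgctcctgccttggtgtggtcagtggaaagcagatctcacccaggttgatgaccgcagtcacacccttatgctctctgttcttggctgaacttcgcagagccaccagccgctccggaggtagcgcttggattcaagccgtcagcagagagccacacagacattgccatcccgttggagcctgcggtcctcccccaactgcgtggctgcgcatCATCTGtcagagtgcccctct
Rgs16 (chr1:153740103-153740402, plus strand): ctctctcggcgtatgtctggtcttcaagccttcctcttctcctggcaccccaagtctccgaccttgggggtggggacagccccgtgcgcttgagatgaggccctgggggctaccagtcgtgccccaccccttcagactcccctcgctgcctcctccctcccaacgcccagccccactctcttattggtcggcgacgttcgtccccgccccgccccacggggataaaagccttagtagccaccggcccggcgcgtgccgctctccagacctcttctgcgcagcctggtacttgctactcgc
Neurod1 (chr2:79456587-79456886, minus strand): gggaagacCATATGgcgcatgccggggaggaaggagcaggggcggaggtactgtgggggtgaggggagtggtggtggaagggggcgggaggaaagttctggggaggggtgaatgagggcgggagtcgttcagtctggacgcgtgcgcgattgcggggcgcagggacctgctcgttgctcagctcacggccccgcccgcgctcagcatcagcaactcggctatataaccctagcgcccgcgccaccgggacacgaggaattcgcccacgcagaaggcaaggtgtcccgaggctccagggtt
Plagl1 (chr10:13090582-13090881, plus strand): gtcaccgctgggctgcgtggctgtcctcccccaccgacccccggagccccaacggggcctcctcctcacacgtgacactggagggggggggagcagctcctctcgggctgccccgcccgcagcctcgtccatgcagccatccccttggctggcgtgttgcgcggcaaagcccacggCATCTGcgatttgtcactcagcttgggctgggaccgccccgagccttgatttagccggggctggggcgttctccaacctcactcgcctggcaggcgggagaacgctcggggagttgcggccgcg
The Rgs8 start shown, 1 of 3 listed, holds CATCTG, the Neurod1 promoter holds CATATG, the Plagl1 promoter holds CATCTG, and the Rgs16 window has no match. Of the 20 genes past both fits, 16 had a listed promoter, with 21 starts in all, and Has2, Bhlhe22, Osr1 and Cdkn1c had none listed. Starts of a gene are counted separately, so the windows include 3 of Rgs8, 3 of Pnpla6 and 2 of Miip, and that of Olig2 is among them. Each Rgs8 window holds an E-box, which is CAGCTG in those not shown. At least 1 of the 3 E-boxes was in 42.9% of these 21 windows and in 33.2% of all 32619 listed promoters. By motif the shares were 19% against 16.4% for CAGCTG, 23.8% against 17.1% for CAGATG and 4.8% against 3.8% for CATATG.

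The proneural genes Neurod1 and Neurog2 rose. Neurod1, a bHLH factor of neuronal differentiation (chromosome 2, 79452521 to 79456751), was at 12.1 and 19.6 CPM in the Olig2 libraries and at 1.51, 1.93, 2.39, 3.77 and 4.89 CPM in the controls. Neurog2, a proneural bHLH factor of motor neuron progenitors (chromosome 3, 127633135 to 127635631), was at 45.2 and 71.2 CPM against 5.27, 10.8, 15.7, 14.9 and 23.8 CPM. The groups did not overlap in either gene, and control replicate 5, the control with most Olig2, was the highest control in both. Log2 fold changes were 2.46 ± 0.39 for Neurod1 (SE; edgeR quasi-likelihood adjusted p = 0.00317, and 0.0235 without chromosomes 18 and Y) and 2.05 ± 0.37 for Neurog2 (0.00944, and 0.0572 without them).

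Of 10 tested proneural and associated neurogenic factors, these 2 rose, 8 did not pass, and the list median was 1.73. Over all genes described 0.296% rose, with a median of -0.01. Without Olig2 replicate 2 none of the list passed, and without control replicate 5 the number was 4. Members that did not pass spread more widely between libraries. Neurod4, another neuronal bHLH factor, was at 10.7 and 30.0 CPM against 0.574, 2.35, 2.08, 3.10 and 16.5 CPM, so the lower Olig2 library fell below control replicate 5. Nhlh2 (6.13 and 16.4 against 0.678 to 5.95 CPM) and Neurog1 (8.36 and 15.6 against 1.83 to 6.45 CPM) lay above all controls.

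Ligands and a target of Notch signalling were among the higher genes. Dll3, a ligand-like protein that acts within the cell, was at 9.76 and 18.7 CPM against 3.13, 3.19, 3.90, 4.95 and 7.56 CPM. The ligand Dll4 was at 4.6 and 11.8 CPM against 0.365, 1.46, 2.23, 1.58 and 3.22 CPM. In both, the Olig2 libraries lay above all controls, and the log2 fold changes were 1.65 ± 0.36 and 2.21 ± 0.50 (SE; edgeR quasi-likelihood adjusted p = 0.0314 and 0.0422). Mfng, a glycosyltransferase that modifies Notch (1.67 ± 0.37), Heyl, a transcriptional target of Notch (1.42 ± 0.29), and Dlk2, a non-canonical ligand (2.10 ± 0.49), also rose. Of 29 tested members of the pathway 5 rose, 0 fell and 24 did not pass, with a median of 0.26. Over all genes described 0.296% rose and 0.407% fell, with a median of -0.01. In the fit without chromosomes 18 and Y none of the 5 passed (adjusted p = 0.094 to 0.134 by edgeR's quasi-likelihood test). The count of 5 became 0 without Olig2 replicate 2, 1 without control replicate 2, 3 or 4, 2 without control replicate 1 and 7 without control replicate 5.

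The Notch receptors and main effector did not pass. Notch1 was at 92.4 and 175 CPM against 82.8 to 116 CPM, and Hes1 at 71.0 and 89.6 CPM against 69.7 to 85.4 CPM. The ligand Dll1 (1.04 ± 0.28), the target Hes5 (1.95 ± 0.53) and the feedback inhibitor Nrarp (1.73 ± 0.46) had positive log2 fold changes that also missed the threshold (SE; edgeR quasi-likelihood adjusted p = 0.0982, 0.0963 and 0.0910).

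**Figure D2:**
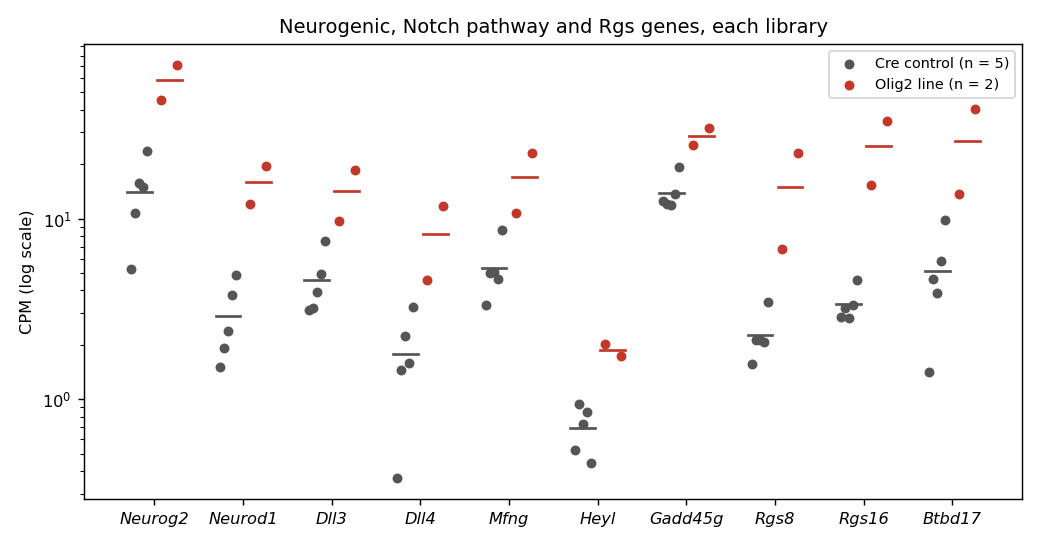
Each point is the CPM of 1 library on a log axis, for 10 genes past the threshold in the fit to all genes, and lines mark group means. The 2 Olig2 libraries lie above all 5 controls in each gene, and replicate 2 (right point) is the higher one in each but Heyl.

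Cdkn1c and Gadd45g rose as well. Cdkn1c, an imprinted inhibitor of cyclin-dependent kinases, was at 142 and 203 CPM against 85.2, 105, 89.5, 91.3 and 98.9 CPM (log2 fold change 0.87 ± 0.15, SE; edgeR quasi-likelihood adjusted p = 0.00600, and 0.0447 without chromosomes 18 and Y). Gadd45g, a stress and differentiation gene of early neurons, was at 25.5 and 31.8 CPM against 11.9 to 19.3 CPM (1.05 ± 0.20). These were the 2 of 31 early neuronal genes that rose, with 0 lower and a median of 0.22, and without Olig2 replicate 2 neither passed. Pou3f1, a POU factor and the single pan-neural progenitor gene of 15 to pass, was at 11.5 and 9.97 CPM against 3.22 to 5.79 CPM (1.23 ± 0.24). Beside these 2 lists, 0.296% of all genes described rose. Among the highest genes outside the lists were Btbd17 (2.40 ± 0.52), Sstr3, a somatostatin receptor (1.96 ± 0.46), and Stmn4, a tubulin-binding stathmin (1.78 ± 0.37). Cdkn1c alone of these passed both fits.

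The 12 motor neuron genes and 13 oligodendrocyte genes that were tested held no member past the threshold, with medians of 0.04 and 0.05. Over all genes described 0.703% passed. Lhx3 (1.78 ± 0.56), Isl1 (0.98 ± 0.49) and Mnx1 (0.64 ± 0.30), homeodomain factors of motor neurons, had edgeR quasi-likelihood adjusted p-values of 0.173, 0.431 and 0.392. The other higher genes past both fits belonged to no neural list. Ltbp2, a matrix protein of elastic fibres, was at 3.0 and 4.15 CPM against 0.730, 0.784, 0.468, 0.394 and 0.445 CPM (2.64 ± 0.36). Its relatives Ltbp1, Ltbp3 and Ltbp4 did not pass (0.02, 0.52 and -0.09). The adaptor Afap1l2 (1.25 ± 0.22), Tbc1d9, a protein with a Rab GTPase-activating domain (1.27 ± 0.20), and the lysophospholipase Pnpla6 (0.42 ± 0.07) were also above all controls in both libraries.

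The progenitor factors Pax6 and Irx3 fell. Pax6, a homeodomain factor of the progenitors dorsal to the Olig2 domain, was at 44.7 and 46.8 CPM in the Olig2 libraries against 96.6, 91.9, 127, 106 and 77.8 CPM. Irx3, which meets Olig2 at the dorsal edge of its domain, was at 24.3 and 28.1 CPM against 50.8, 54.3, 75.3, 66.5 and 44.4 CPM. Both Olig2 libraries lay well below the lowest control in each. The log2 fold changes were -1.13 ± 0.20 for Pax6 and -1.15 ± 0.21 for Irx3 (SE; edgeR quasi-likelihood adjusted p = 0.00706 and 0.00894, and 0.0518 and 0.0572 without chromosomes 18 and Y). Over all genes described 0.407% fell, with a median of -0.01. Of 12 intermediate and dorsal-boundary factors, whose median was -1.03, Pax6 and Irx3 fell and 10 did not pass. Neither passed with 1 of the Olig2 libraries left out.

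Other members of that list lay low without passing. Irx5 was at 4.39 and 7.69 CPM against 10.3 to 17.4 CPM, and Nkx6-2 at 5.37 and 8.77 CPM against 10.2 to 33.0 CPM. Dbx1, a factor of V0 progenitors, was at 7.25 and 25.2 CPM, which overlapped the controls at 11.3 to 48.7 CPM. In the list of 8 tested genes of the Olig family and its close bHLH relatives, Olig2 included, Bhlhe22, a repressor of spinal interneurons, fell from 1.10, 1.52, 1.35, 1.35 and 1.72 CPM to 0.349 and 0.300 CPM (-2.10 ± 0.32; edgeR quasi-likelihood adjusted p = 0.00264, and 0.0174 without chromosomes 18 and Y). Olig3, of dorsal progenitors, was at 0.767 and 0.421 CPM against 1.00 to 3.38 CPM (-1.97 ± 0.52) and did not pass (adjusted p = 0.0902). Dorsal progenitor and roof plate factors (15 tested, median -0.32) and V2, V1 and V0 interneuron genes (9 tested, median -0.22) held no call.

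**Figure D3:**
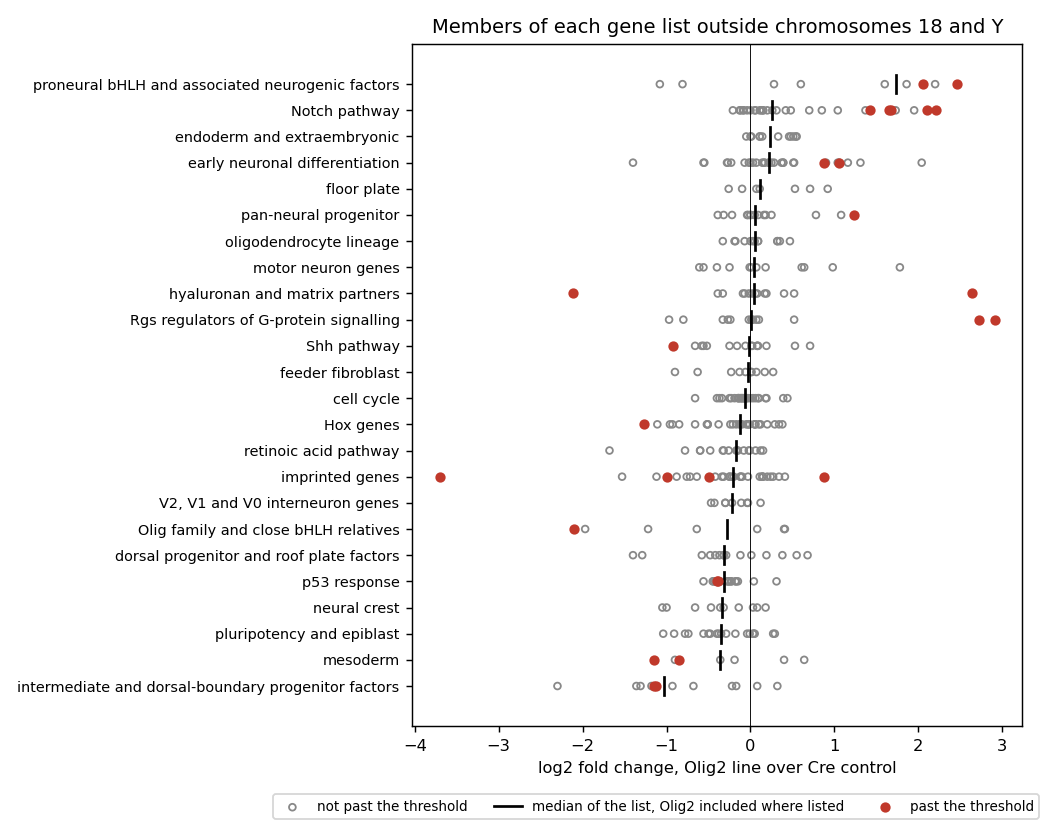
Each point is a tested list member outside chromosomes 18 and Y, placed by its log2 fold change in the Olig2 line over the Cre control, with Olig2 itself not drawn. Bars mark list medians, which run from -1.03 for intermediate and dorsal-boundary factors to 1.73 for proneural factors, and filled points passed the threshold.

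The lowest called gene was Plagl1, an imprinted zinc-finger factor (chromosome 10, 13060504 to 13131694). It was at 2.72 and 4.33 CPM in the Olig2 libraries and at 22.2, 29.7, 35, 83.8 and 60.4 CPM in the controls. The controls varied among themselves, and all were above both Olig2 libraries. Libraries of the line with Nkx6.1-P2A-Nkx2.2, which has no Olig2 transgene, were also below every control, at 8.66 and 12.7 CPM. On the log2 scale it fell by 3.70 ± 0.53 (SE; edgeR quasi-likelihood adjusted p = 0.00156, and 0.0114 without chromosomes 18 and Y). Ltv1, a ribosome biogenesis gene that lies 118 kb away, fell by 0.45 ± 0.09. Of 30 imprinted genes 3 fell, Plagl1, Mest (-0.99 ± 0.21) and Ndn (-0.49 ± 0.10), and 1 rose, Cdkn1c, with a median of -0.21. Over all genes described 0.407% fell and 0.296% rose, with a median of -0.01. Peg3 (349 and 410 against 517 to 738 CPM) did not pass and Dlk1 (223 and 124 against 125 to 193 CPM) overlapped.

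Has2, which makes hyaluronan (chromosome 15, 56665627 to 56694539), fell from 30.2, 32.8, 36.0, 29.0 and 18.7 CPM to 8.71 and 4.87 CPM (-2.12 ± 0.28; edgeR quasi-likelihood adjusted p = 9.14e-04, and 0.00803 without chromosomes 18 and Y). The 14 hyaluronan and matrix genes held Has2 on the lower side and Ltbp2 on the higher side, and neither the receptor Cd44 (8.30 and 7.99 against 6.59 to 9.56 CPM) nor the hyaluronan-binding Vcan passed. Cyp1b1, a cytochrome P450 that can oxidise retinoids, was at 20.6 and 16.5 CPM against 40.6 to 63.8 CPM. Foxd2 was at 5.09 and 6.55 CPM against 12.9 to 17.1 CPM and Osr1 at 6.90 and 9.31 CPM against 17.6 to 22.5 CPM. Both are factors of the mesoderm and kidney, and their log2 fold changes were -1.36 ± 0.17 and -1.28 ± 0.18. Tle1, a Groucho co-repressor, was at 56.5 and 53.6 CPM against 72.6 to 84.1 CPM (-0.52 ± 0.07). Has2, Cyp1b1, Foxd2, Osr1 and Tle1 passed both fits.

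Of 7 mesoderm genes 2 fell, Meox1 (10.1 and 7.87 against 12.4 to 27.2 CPM) and Hand2 (5.79 and 6.61 against 8.56 to 13.3 CPM). Over all genes described 0.407% fell, and 0.703% passed in either direction. Among 29 Hox genes Hoxd1 fell (3.28 and 3.0 against 4.5 to 9.51 CPM) and 28 did not pass, with a median of -0.12. Hhip, a membrane inhibitor of Sonic hedgehog signalling, was the single one of 16 pathway genes to pass (13.8 and 18.1 against 23.3 to 37.4 CPM), and the receptor Ptch1 (290 and 371 against 232 to 315 CPM) overlapped the controls. The p53 targets Plk2 (-0.40 ± 0.09) and Aen (-0.39 ± 0.08) fell among 20 tested. Of these 20, 18 were below 0, with a list median of -0.32. Over all 13511 genes described, 7082 were below 0, with a median of -0.01. Myc, the growth regulator, was at 11.3 and 13.5 CPM against 19.4 to 48.4 CPM (-1.44 ± 0.32). None of the genes in this paragraph passed without chromosomes 18 and Y. No gene of the retinoic acid pathway (17 tested), cell cycle (30), pluripotency (19), endoderm (12), neural crest (10), floor plate (7) or feeder fibroblast list (10) passed.

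Among lower genes past both fits, 3 were low in the Olig2 line alone. B3galtl, a glucosyltransferase, was at 9.34 and 12.2 CPM in the Olig2 libraries and at 24.3 to 36.9 CPM in the other 13 libraries. Ttc27, a tetratricopeptide repeat gene, was at 33.5 and 29.9 CPM against 59.6 to 75.3 CPM. Miip, an inhibitor of cell migration, was at 2.23 and 2.40 CPM against 5.38 to 8.94 CPM. In these 3 genes no library of another line, including both of Nkx6.1-P2A-Olig2, was as low as the Olig2 line. Against the controls the log2 fold changes were -1.27 ± 0.12, -1.07 ± 0.09 and -1.64 ± 0.20 (SE; edgeR quasi-likelihood adjusted p = 9.73e-05, 5.56e-05 and 5.98e-04).

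No other tested gene within 500 kb of these 3 passed. Fv1, a retrovirus restriction gene chosen after its value was seen, lies at 147868979 to 147870358 of chromosome 4, beside Miip (147860778 to 147868816) and on the opposite strand, and its mean was 0.190 CPM against 1.22 CPM in the controls (-2.61 ± 0.65, SE; edgeR quasi-likelihood adjusted p = 0.0654). Mfn2, on its other side, was at 61.7 against 59.2 CPM. Beside B3galtl, Hsph1 had a log2 fold change of -0.23 ± 0.08, and beside Ttc27, Birc6 had -0.23 ± 0.14 and Ltbp1 0.02 ± 0.15.

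Hprt showed another pattern. It was at 62.3 and 40.4 CPM in the Olig2 libraries against 143, 136, 141, 139 and 123 CPM in the controls, and at 29.8 to 82.6 CPM in the other 8 transgenic libraries. Every transgenic library thus lay below every control (Olig2 line -1.41 ± 0.25; edgeR quasi-likelihood adjusted p = 0.00737). In lines made by the A2Lox.Cre method the inducible gene is placed upstream of Hprt on the X chromosome. Its part in these values was not tested.

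**Figure D4:**
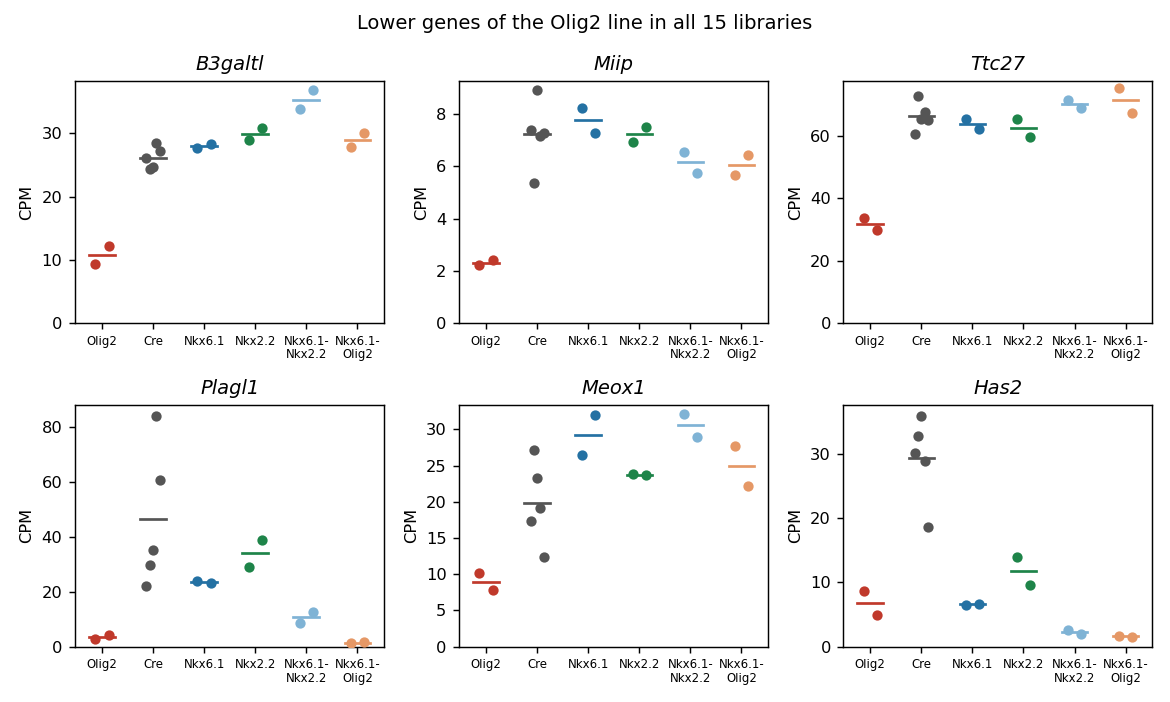
CPM of 6 lower genes in all 15 libraries by line, on axes that start at 0, with group means as lines. B3galtl, Miip and Ttc27 are low in the 2 Olig2 libraries alone, Plagl1 lies below every control in the Nkx6.1-P2A-Olig2 and the Nkx6.1-P2A-Nkx2.2 libraries too, and Has2 does so in all transgenic lines.

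The Olig2 line was set directly against other lines that share its drug treatment and the number series of its library labels. Against the Nkx6.1 line 121 genes passed (0.896%; 41 lower, 0.303%, and 80 higher, 0.592%), and against the Nkx2.2 line 122 (0.903%; 57 lower, 0.422%, and 65 higher, 0.481%). Of the 94 genes called against the control besides Olig2, 21 also passed in the same direction against the Nkx6.1 line, 29 against the Nkx2.2 line and 13 against both, with the Olig2 libraries shared by all comparisons. Without chromosomes 18 and Y, 40 genes (0.295%) and 63 genes (0.464%) passed against these lines. The 13 included Rgs8, Rgs16, Neurod1, Neurog2, Tbc1d9 and Dact1 on the higher side and Plagl1, Miip, B3galtl, Ttc27, Meox1 and C330006A16Rik on the lower side. Rgs16 was higher by 3.0 and 3.84 on the log2 scale than in the Nkx6.1 and Nkx2.2 lines (edgeR quasi-likelihood adjusted p = 5.85e-04 and 1.31e-04), and Neurog2 by 4.69 and 5.69 (9.42e-04 and 4.58e-04). In the Nkx6.1 line Neurog2 lay below every Cre control. Pax6 went the other way against the Nkx2.2 line, where it was at 10.2 and 15.1 CPM (1.86; adjusted p = 0.00124). Has2 did not differ detectably from the Nkx6.1 line (0.04; adjusted p = 0.972), where it was at 6.48 and 6.69 CPM.

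A second line with Olig2, set against the Nkx6.1 line, shares no library with the comparison of the Olig2 line and the Cre control. Olig2 was at 586 and 637 CPM in that line (Nkx6.1-P2A-Olig2) and at 22.8 and 24.1 CPM in the Nkx6.1 line. Between them 82 genes passed (0.607%; 46 lower, 0.340%, and 36 higher, 0.266%). Of the 55 genes lower in the Olig2 line, 24 were below 0 there and 5 passed in the same direction, with a median of 0.05. Of the 39 higher genes besides Olig2, 28 were above 0 and 2 passed, with a median of 0.22. Over all genes described, 51.6% were below 0 and 48.4% above. Of the genes past both fits, 8 of 11 lower and 5 of 8 higher ones had the same sign.

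The 7 genes that passed in both Olig2 lines were Rgs16, Neurog2, Plagl1, Has2, Cyp1b1, Clstn2 and Eif5b. Rgs16 was at 12.3 and 13.1 CPM with both factors and at 2.99 and 3.31 CPM with Nkx6.1 alone (2.01; edgeR quasi-likelihood adjusted p = 0.0330). Neurog2 was at 15.5 and 20.4 CPM against 2.26 and 2.23 CPM (2.99; adjusted p = 0.0425). Its values with both factors lay within the range of the Cre controls, and those with Nkx6.1 alone lay below every control. Plagl1 was at 1.21 and 1.74 CPM against 23.8 and 23 CPM (-3.99; adjusted p = 0.0302). Rgs8, at 5.08 and 8.10 CPM against 1.69 and 1.15 CPM, missed the threshold (2.19; adjusted p = 0.0664). Pax6 did not differ detectably (-0.03; adjusted p = 0.950). The number series of the labels differs between these lines, and with a term for it 8 genes passed in place of 82, all lower, whereas 77 (0.567%) passed without chromosomes 18 and Y. Of the 7 genes above, Plagl1 and Eif5b passed with the term (adjusted p = 2.08e-04 and 0.0337), and Rgs16, Neurog2, Has2, Cyp1b1 and Clstn2 did not (edgeR quasi-likelihood adjusted p = 0.0944 to 0.384).

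**Figure D5:**
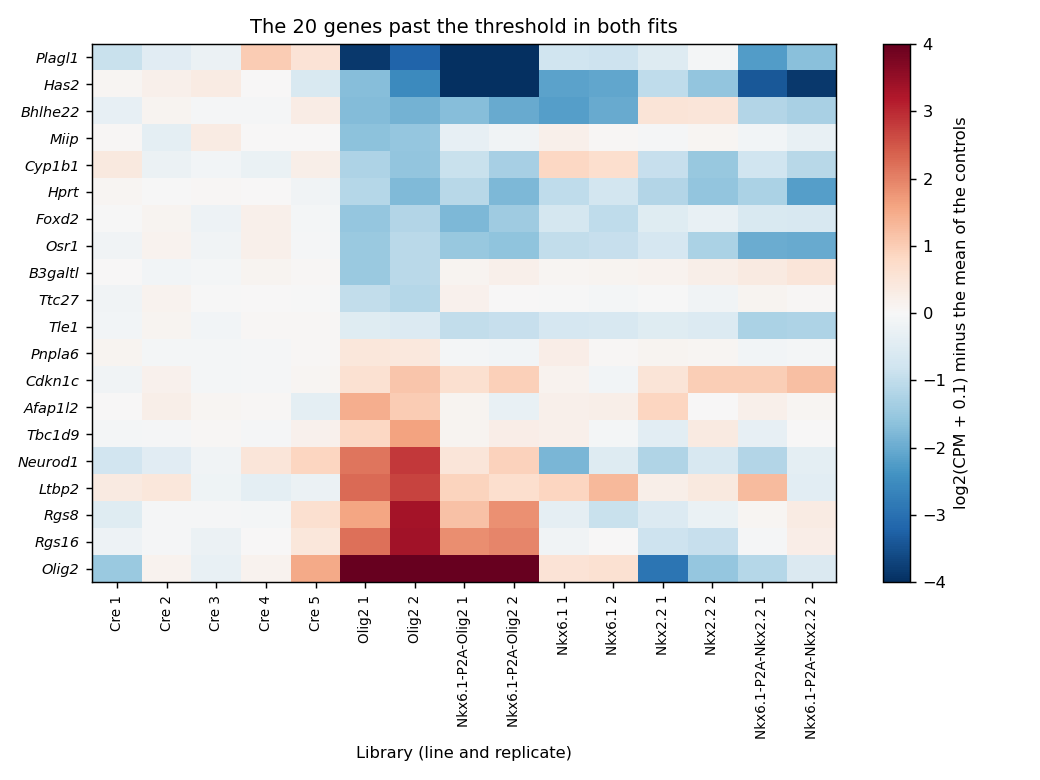
log2(CPM + 0.1) of the 20 genes past both fits, minus the mean of the controls, for each library, with colours limited to values from -4 to 4. Rgs16 and Olig2 are red in both lines that express Olig2. Plagl1 is blue there and with Nkx6.1-P2A-Nkx2.2, and Has2 is blue in all transgenic lines. Miip, B3galtl and Ttc27 are lowest in the Olig2 line.

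The number of calls differed with the libraries used. In 30 of the 40 higher genes Olig2 replicate 2 was above replicate 1, and in 25 of the 55 lower genes it was below. The same share over all genes described is not given here. Control replicate 5, which had most Olig2 of the controls, was the highest control in 20 of the 40, Olig2 included, against 28.1% of all genes described. It was the lowest control in 22 of the 55 lower genes, against 31.6% of all genes described. This library also differed in endoderm markers. Afp was at 98.5 CPM against 5.25 to 14.2 CPM in the other controls, and Gata4 at 226 against 79.8 to 114 CPM. Foxa2 was at 107 against 59.7 to 99.6 CPM, and Sox17, at 70.1 CPM, lay within the other controls. Without Olig2 replicate 2 the count of 95 became 11, and without control replicate 5 it became 257. Without control replicates 2, 3 and 4 it was 47, 57 and 40. Library labels begin with numbers of a 21 or a 23 series, whose meaning is not given. Against only the 3 controls of the Olig2 line's own series (21) the count was 72, 33 lower and 39 higher, of which 54 were among the 95. Among chromosomes outside 18 and Y the median log2 fold change ran from -0.04 to 0.02, against 0.52 for chromosome 18 as a whole. Over windows of 25 neighbouring genes outside 18 and Y it ran from -0.46, on chromosome 4, to 0.18. The lowest window of chromosome 5 was at -0.36. Windows of chromosome 18 ran from -0.09 to 0.81.

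In the authors' deposited table of 224 genes, which holds counts divided by the control mean, 209 genes were among those described here and 37 had both Olig2 ratios at or under 0.5. Of the 95 called genes 25 are listed there, 23 of them lower, and 19 of the 37 were called lower. The authors' deposited table has 1 such gene with both Olig2 ratios at or over 2, and the largest Olig2 ratio in it is 4.55.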

How the data were processed

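Column-purified RNA went into TruSeq libraries, per the labels' protocols. STAR, DESeq2 and mm10 are named in the submitters' processing notes without versions or roles. How genes were annotated and counted, and with which strand setting, is not given in the sources used here. Overlapping, antisense or near-identical genes may share reads. The deposited counts are whole numbers in a sheet named for RPKM. In 27 rows a date replaced the symbol (0.228% to 0.253% of counts); these counted in the totals but were left untested. A second deposited table holds a ratio per gene: all 2240 cells equalled the count over the control mean within 1e-8, so library size was not corrected for.

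The counts as deposited were TMM-scaled and tested with edgeR 4.0.16 (R 4.3.3) by the quasi-likelihood test in 1 model of 6 groups and all 15 libraries, with Benjamini-Hochberg adjustment over 13982 genes and a threshold of 0.05. CPM values are TMM-scaled. "Rose" and "fell" refer to genes past the threshold. Positions came from GENCODE M21 (21751 symbols direct, 1276 by synonym). The 1 called gene without a position was not counted. The fit was tested on simulated data.

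Named by rule were the 3 factors, genes past both fits, the 12 lowest and 12 highest log2 fold changes among called genes, called members of 24 gene lists and up to 6 uncalled members of each list with a call. Other named genes were taken from lists or comparisons after their values were seen. The members and lists were chosen with earlier results of these data known. Alternatives were DESeq2 1.42.0, limma 3.58.1 on log2(CPM + 1), other scaling, filters and blocks, thinned counts, fewer libraries, the fit without chromosomes 18 and Y and, added after seeing the data, adjustment over placed genes outside them. Some items are not reported here.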

Additional observations from a re-analysis of the deposited data

Results flagged for a closer look

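Among 124 named genes, 6 had a control far from the other 4 by Dixon's test, which chance gives in about 1 of 20 groups, and 4 of the 6 were control replicate 5. In that library Neurod4 was at 16.5 CPM against 0.574 to 3.10 in the other controls, Olig1 at 6.78 CPM against 1.56 to 2.76, Gadd45g at 19.3 CPM against 11.9 to 13.6, and Stmn4 at 0.667 CPM against 0.416 to 0.470. Control replicate 4 was low in Rgs3, at 13.3 CPM against 15.3 to 15.7. Control replicate 1 was low in Ptch1, at 232 CPM against 296 to 315.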

How the results depend on the processing

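The count of 95 genes for the Olig2 line against the control became 246 with DESeq2, 42 with only the compared groups in the fit, 1815 with the label number as a block, 20 without chromosomes 18 and Y and 22 with adjustment over genes outside them. It ranged from 11 to 257 with 1 library left out. Other settings gave 72 to 97. Against the Nkx6.1 line the count of 121 became 376 with DESeq2, 433 with the replicate block, 693 with the label number block, 40 without chromosomes 18 and Y and 41 with the narrower adjustment, and 22 to 131 with 1 library left out. Against the Nkx2.2 line the count of 122 became 226 with DESeq2, 3 with only the compared groups, 205 with the replicate block, 687 with the label number block, 63 and 62 without chromosomes 18 and Y in the fit or in the adjustment, and 35 to 63 with 1 library left out. For the Nkx6.1-P2A-Olig2 against the Nkx6.1 line the count of 82 became 591 with DESeq2, 131 with limma, 139 with a 5 CPM filter, 16 with only the compared groups, 8 with the label series, 337 with the replicate block, 16 with the label number block and 53 with thinned counts, and 1 to 78 with 1 library left out. Apart from the narrower adjustment, whose construction sets its counts, the cause was not tested.

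With the replicate number as a block, the Olig2 line against the control gave 97 genes, 40 lower and 57 higher, 42 of them among the 95. Whether the replicate numbers pair the samples is not given. Deviations from group means of same-numbered Olig2 and control libraries correlated at 0.504 and -0.0589. Those of the Olig2 and control libraries labelled 214 correlated at -0.519. With 2 Olig2 libraries the deviations of one mirror those of the other, so these values cannot decide on pairing. With the label number as a block the log2 fold changes of Notch2 (-0.44), Hoxb4 (-0.39), Sox11 (-0.51) and Vcan (-0.68) reversed. Of 45 named genes past the threshold 10 passed in every alternative fit: Plagl1, Has2, Miip, Foxd2, Osr1, B3galtl, Ttc27, Ltbp2, Rgs16 and Olig2. None of the 45 reversed in any of 891 alternative values.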
